A study of Homo sapiens with 11 samples.

Results

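Among 103379 SOX10 peaks of DMSO-treated 92-1 cells, 10615 (10.3%) shared at least 1 bp with a MITF peak and no base with a TFAP2A peak of the same condition. These SOX10 and MITF sites without TFAP2A were described across the peak lists of SOX10, MITF, TFAP2A, SMARCA4 and H3K27ac, and by gene. The sites were chosen by the DMSO peaks of these 3 factors, so that their DMSO values for SOX10, MITF and TFAP2A are given as a description. 92-1 is an established line of uveal melanoma, a tumour that arises from pigment cells in the eye. The 2 groups were cells given vehicle (DMSO) and cells given FHT-1015, a dual inhibitor of SMARCA4 and SMARCA2, both for 4 h. There was 1 library for every antibody and group, and the last of the 11 samples was a DMSO input. All libraries came from this 1 line, without any other treatment or genetic change in the labels. TFAP2A was written AP-2 in the sample titles and TFAP2A in the antibody list of the labels.

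SOX10 and MITF are master regulators of pigment cells. SOX10, an HMG-box factor of the neural crest, activates MITF, and MITF, a basic helix-loop-helix leucine zipper factor, binds E-boxes and activates genes of melanin synthesis, survival and lysosomes. TFAP2A is a neural crest factor that shares many targets with them in melanocytes. SMARCA4, also called BRG1, and SMARCA2 are the alternative ATPases of the BAF complexes, which move nucleosomes. H3K27ac, acetylation of lysine 27 of histone H3, marks active promoters and enhancers.

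Of the 3 other kinds of SOX10 peak, 35950 (34.8%) met both MITF and TFAP2A and are called triple sites here, 27441 (26.5%) met TFAP2A only, and 29373 (28.4%) met neither. Strength is the −log10 p of a peak as the authors deposited it. The H3K27ac list of DMSO covered 77.9% of PMEL, 57.7% of MLANA, 89.6% of SOX10 and 46.8% of MITF, which mark pigment cells, and met no base of KRT5, KRT14, EPCAM, CD3E, COL1A1 or PECAM1, which mark epithelial, blood, stromal and endothelial cells. It covered 8.07% of TYR and 4.48% of DCT, and, of the other non-pigment markers, 7.77% of CDH1, 1.95% of VWF, 1.08% of PTPRC and 0.483% of PDGFRB. Depth, inferred from the peak values on the assumption that they have the usual form of MACS2, was 1.15 times the DMSO depth in the FHT-1015 library for SOX10, 0.854 times for MITF, 0.960 for TFAP2A, 0.918 for SMARCA4 and 1.05 for H3K27ac. The median peak on the SOX10 and MITF sites without TFAP2A had 18 reads at its summit for SOX10 in DMSO and 20 in FHT-1015, and 20 and 16 for MITF. Over the whole lists, SOX10 had 103379 peaks in DMSO and 33268 in FHT-1015, with medians of 20 and 17 summit reads. MITF had 89519 and 92716 peaks, with medians of 15 and 8 reads, so its FHT-1015 list held peaks of fewer reads. With 1 library per condition there is no replicate and no test, and the 95% Wilson intervals over sites cover counting error only.

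Sequence could be read where a site lay on a promoter in the RefSeq table for GRCh38.p14, which holds 250 bases before and 50 after each start. Of the 10615 sites, 352 lay on 418 of these 34943 promoter windows. The 3 stretches printed are the 250 bases upstream of the start at the sites of highest SOX10 −log10 p among 22 promoters that held an E-box and a SOX motif with both summits upstream of the start. They were chosen after their values were seen, to show what the DNA under these sites can look like. Capitals mark the E-box (CACGTG or CATGTG, with the flanking T where it makes the longer M-box TCACGTG or TCATGTG) and the SOX motif (ACAAAG or ACAATG), on either strand.
MIR222HG promoter (chrX:45770268-45770517, minus strand): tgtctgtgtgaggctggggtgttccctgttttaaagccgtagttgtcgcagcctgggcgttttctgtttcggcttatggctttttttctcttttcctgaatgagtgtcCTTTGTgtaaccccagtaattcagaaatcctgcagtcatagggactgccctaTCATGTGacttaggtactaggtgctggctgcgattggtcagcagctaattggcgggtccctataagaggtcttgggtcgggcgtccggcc
ZNF789 promoter (chr7:99472640-99472889, plus strand): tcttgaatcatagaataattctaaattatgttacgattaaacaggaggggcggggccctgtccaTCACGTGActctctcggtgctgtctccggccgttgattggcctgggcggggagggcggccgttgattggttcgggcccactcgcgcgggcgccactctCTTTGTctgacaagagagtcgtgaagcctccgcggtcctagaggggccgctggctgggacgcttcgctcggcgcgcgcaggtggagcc
DNAJA4 promoter (chr15:78265968-78266217, plus strand): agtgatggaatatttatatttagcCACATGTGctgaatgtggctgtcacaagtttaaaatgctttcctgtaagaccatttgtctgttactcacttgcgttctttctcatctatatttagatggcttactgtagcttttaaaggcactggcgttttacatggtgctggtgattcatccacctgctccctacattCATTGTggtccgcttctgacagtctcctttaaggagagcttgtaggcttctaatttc

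The 3 promoters differed in what FHT-1015 left. At MIR222HG, the host gene of a microRNA pair, the SOX10 peak of −log10 p 25.7 was gone in FHT-1015, while MITF went from 59.1 to 44.5 and H3K27ac from 94.3 to 82.8, and peaks of TFAP2A (7.67) and SMARCA4 (9.03) were listed that DMSO lacked. At ZNF789, a zinc-finger gene, SOX10 went from 23.8 to 6.66, MITF from 64.4 to 46.0 and H3K27ac from 88.0 to 221, and a SMARCA4 peak of 5.16 was listed in FHT-1015 only. The window of ZNF789 also held the TFAP2 motif GCCNNNGGC, not capitalised, although no TFAP2A peak was listed there in DMSO or FHT-1015. At DNAJA4, which encodes a heat-shock cochaperone, all 4 DMSO peaks, SOX10 at 14.6, MITF at 16.8, SMARCA4 at 4.50 and H3K27ac at 10.8, had no counterpart in FHT-1015.

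Over all 418 promoter windows on these sites, 30.4% (95% interval 26.2 to 35.0) held either E-box, against 17.6% of all promoters and 21.5% of the 9027 promoters on a triple site. CATGTG was in 15.1% of them, against 11.1% of all promoters and 7.71% of those on triple sites. CACGTG was in 16.7%, against 7.23% and 15.0%. The M-box TCATGTG, which contains CATGTG, was in 6.94%, against 2.93% and 2.19%, and TCACGTG, which contains CACGTG, was in 10.8%, against 3.69% and 9.37%. Either SOX motif was in 23.4%, against 24.5% of all promoters and 15.5% of those on triple sites. The TFAP2 motif GCCNNNGGC was in 11.2% (8.56 to 14.6), against 23.2% of all promoters and 33.5% of those on triple sites. All motifs were searched on both strands, and promoters of 1 gene can overlap, so the windows are not independent. A window without a match says only that these letters are not in it.

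In DMSO, the SOX10 and MITF sites without TFAP2A were weaker SOX10 peaks than the triple sites. Their SOX10 −log10 p had a median of 7.14, with quartiles of 4.80 and 12.8 and a maximum of 168, against a median of 16.6 at triple sites, 7.01 at sites with TFAP2A only and 4.84 at SOX10 peaks with neither. Only 4.58% of them were in the top decile of all SOX10 peaks, against 24.4% of the triple sites. The peaks had a median length of 305 bp, against 526 bp. Their median fold enrichment of SOX10 over the peak caller's background was 3.80. The MITF −log10 p had a median of 10.9, quartiles of 5.71 and 25.4 and a maximum of 412. It was the higher of the 2 values at 65.8% of the sites and at 50.3% of triple sites, which sets 2 libraries side by side and does not compare binding between antibodies. The SOX10 and MITF summits lay a median of 54.0 bp apart, within 100 bp at 72.2% of the sites. The 10615 sites met 10483 MITF peaks, and 263 sites shared a MITF peak with another site.

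The sites lay mostly away from gene ends. Only 7.06% (749) were within 1 kb of either boundary of a protein-coding gene, against 23% of triple sites, 24% of sites with TFAP2A only and 8.85% of SOX10 peaks with neither. Inside a protein-coding gene lay 52.1%. Exons and introns were not analysed here. Their share of the SOX10 peaks was 4.61% (3.95 to 5.38) on chromosome 19, 6.79% on chromosome 16 and 7.22% on each of chromosomes 17 and 22, and 12.9% (11.8 to 14) on chromosome 13 and 12.7% on chromosome 4. The median gap to the next such site was 61563 bp, and 38.9% had a triple site within 10 kb.

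At the edge of the rule, 5 sites shared a single base with MITF and 100 shared fewer than 20. Just outside it, 82 SOX10 peaks without TFAP2A missed a MITF peak by less than 20 bp. A TFAP2A peak of DMSO lay less than 20 bp from 51 of the sites and within 500 bp of 1741, and the median gap to TFAP2A was 4217 bp. The site at chr10:95654002-95654266 (SOX10 −log10 p 7.39) shared 1 bp with MITF, while the SOX10 peak at chr12:19431744-19432068 (7.14) touched a MITF peak without sharing a base and is not among the sites. The site at chrX:3166457-3167377 (44.8) touched a TFAP2A peak, and the SOX10 peak at chr12:116716412-116716848 (8.72) shared 1 bp with one and is not among them.

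After FHT-1015, 901 of the 10615 sites, 8.49% (7.97 to 9.03), still met a SOX10 peak, against 18.3% of all DMSO SOX10 peaks. The share was 5.39% when overlaps had to cover 50% of the SOX10 peak. It was 13.2% among sites chosen at a −log10 p of at least 10 for SOX10 and for MITF. The shares were 31.8% at triple sites, 14% at sites with TFAP2A only and 9.41% at SOX10 peaks with neither. MITF was kept more often, at 4075 sites, 38.4% (37.5 to 39.3), against 36.2% of all DMSO MITF peaks, 49.7% of all SOX10 peaks that met MITF and 53.1% of the triple sites. The FHT-1015 list of MITF was longer than its DMSO list while that of SOX10 was shorter, so the shares of the 2 factors are not on the same scale. Because the rule asks for SOX10 and MITF peaks in DMSO and for no TFAP2A peak there, the first 2 could only be lost and TFAP2A could only be gained. The triple sites carry the same limits for SOX10 and MITF.

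**Figure D1:**
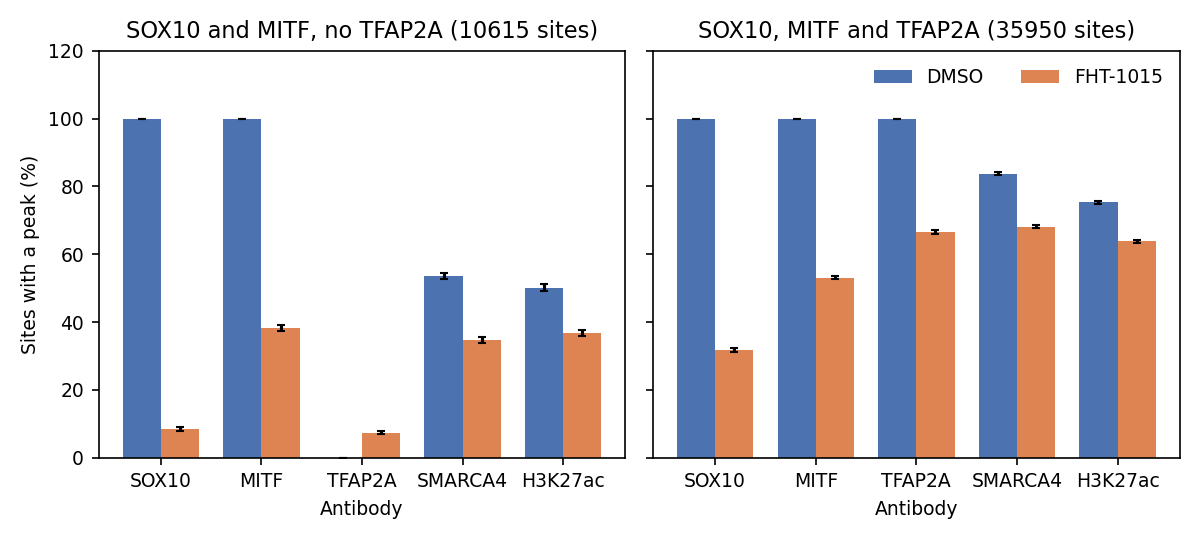
Share of sites (%) with a peak of each antibody in DMSO (blue) and FHT-1015 (orange), for the 10615 SOX10 and MITF sites without TFAP2A (left) and the 35950 triple sites (right). Bars are single libraries and whiskers are 95% Wilson intervals over sites. The DMSO shares of SOX10, MITF and TFAP2A are fixed by the rule, and every FHT-1015 share on the left lies under the one on the right.

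SOX10 retention at these sites rose with the strength of the DMSO peak and stayed under that of triple sites of like strength. In the lowest decile of all SOX10 peaks by −log10 p, 3.71% of the sites kept SOX10 and 6.69% of the triple sites did. In the top decile the shares were 26.1% and 50.2%. Averaged over the deciles, retention differed from triple sites by −12.3 percentage points, from sites with TFAP2A only by −6.12 and from SOX10 peaks with neither by −3.77. Without the sites at gene boundaries the difference from triple sites was −5.20 points, and it was −4.60 when an overlap had to cover 50% of the SOX10 peak, so that its size depends on these settings while its sign did not.

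MITF retention followed the strength of SOX10 less steeply than that of MITF. It was 35.0% at sites with a SOX10 −log10 p of up to 3, 34.7% between 3 and 5 and 39.1% between 5 and 10. Between 10 and 20 it was 40.5%, between 20 and 50 it was 39.6%, and at the 202 sites above 50 it was 48.0%. These bins are not deciles. By MITF strength it rose from 17.4% in the lowest decile of MITF peaks to 73.6% in the top decile, against 22.7% and 84.9% at triple sites. The averaged difference from triple sites was −9.29 points, and −2.21 without sites at gene boundaries. With 50% of the peak covered the difference was −0.506. Its interval, −1.65 to 0.646, has the width of that for the plain difference and covers counting error over sites only. Little of the difference from triple sites was left under that setting.

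**Figure D2:**
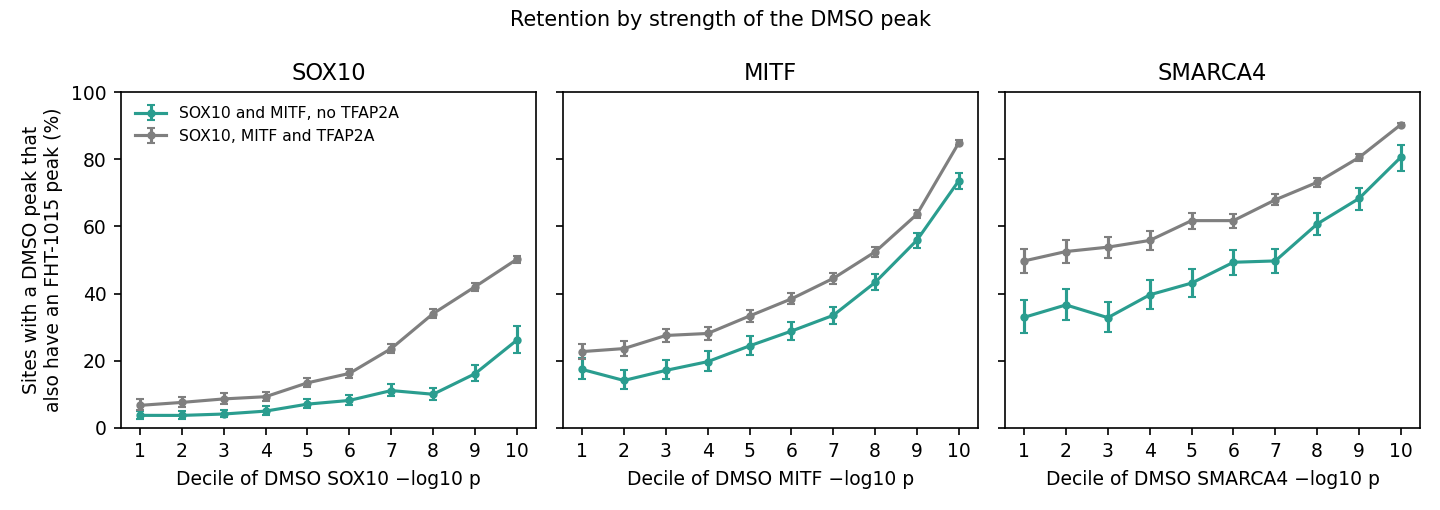
Share (%) of sites with a DMSO peak of SOX10, MITF or SMARCA4 (panels) that also met an FHT-1015 peak of that antibody, by decile of the DMSO −log10 p of its whole list. Green is the SOX10 and MITF sites without TFAP2A, grey the triple sites, and whiskers are 95% Wilson intervals. The green points lie under the grey ones in all 10 deciles of these panels, with SOX10 at 26.1% and 50.2% in the top decile.

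At 3459 of the sites SOX10 was lost and MITF kept (32.6%, 31.7 to 33.5), against 26.5% of triple sites. Both were lost at 6255 (58.9%), against 41.7%. Both were kept at 616 (5.80%), against 26.6%, and SOX10 was kept with MITF lost at 285 (2.68%), against 5.22%. The sites that lost SOX10 alone had a median DMSO SOX10 −log10 p of 7.01 and MITF −log10 p of 21, those that lost both had 6.86 and 8.22, and those that kept both had 12.9 and 15.8.

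Where a factor was kept, its fold enrichment was mostly lower. At the 901 sites with SOX10 in both conditions the median fold went from 4.72 to 3.29 and was lower at 79.5%. At triple sites that kept SOX10 it went from 6.81 to 3.52 and was lower at 93.7%. At the 4075 sites with MITF in both it went from 7.57 to 4.37 and was lower at 78.0%, against 70.5% at triple sites, where it went from 8.62 to 5.07. SMARCA4, at the 2927 sites with a peak in both, had median folds of 3.62 and 3.63, and H3K27ac, at 3602 sites, had 8.78 and 7.37 with a median ratio per site of 0.974. Folds come from separate libraries, each over its own background.

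SMARCA4, the enzyme that FHT-1015 inhibits, was not used by the rule. It had a peak on 53.6% (52.7 to 54.6) of the sites in DMSO, against 83.8% of triple sites, 54.6% of sites with TFAP2A only and 20.8% of SOX10 peaks with neither. In FHT-1015 it had a peak on 34.8% (33.9 to 35.7). Of the 5694 sites with SMARCA4 in DMSO, 51.4% (50.1 to 52.7) kept it, against 67.2% of all SOX10 peaks with SMARCA4, 52.0% of all DMSO SMARCA4 peaks and 75.7% at triple sites. Of the 4921 sites without it, 15.6% had an FHT-1015 peak, against 13.8% of all such SOX10 peaks. At like SMARCA4 strength, retention differed from triple sites by −14.8 points, and by −8.26 without sites at gene boundaries.

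H3K27ac had a peak on 50.2% (49.3 to 51.2) of the sites in DMSO and on 36.9% (36.0 to 37.8) in FHT-1015, against 75.3% and 63.8% of triple sites. Of the 5331 sites with it in DMSO, 67.6% (66.3 to 68.8) kept it, against 78.6% of all SOX10 peaks with H3K27ac, 59.3% of all DMSO H3K27ac peaks and 81.9% at triple sites. Of those without it, 5.98% had an FHT-1015 peak, against 5.38%. At like H3K27ac strength the difference from triple sites was −4.20 points on average, with 28.4% kept against 26.2% in the lowest decile, where the sites lay above the triple sites, and 95.1% against 99.1% in the top one. Peaks were also joined by summits within 200 bp, in the choice of the sites by MITF too but not by TFAP2A. H3K27ac was then on 18.5% of the sites in both conditions, so that no fall was seen under that setting. It leaves out sites that met an H3K27ac peak only away from its summit. It therefore cannot tell whether those sites kept the mark. Broad lists put H3K27ac on 54.0% of the sites in DMSO and 39.8% in FHT-1015. An H3K27ac peak can span several sites, which then share its value.

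The share of sites with SMARCA4 rose with the strength of SOX10. SMARCA4 had a DMSO peak on 33.3% of the sites with a SOX10 −log10 p of up to 3, on 47.7% between 5 and 10, on 66.1% between 10 and 20, on 84.7% between 20 and 50 and on 99.5% of the 202 sites above 50. Those 202 sites had SMARCA4 at 57.4% in FHT-1015. The share of SMARCA4 peaks that were kept showed no such rise, at 50.7% to 58.0% over the 6 bins of SOX10 strength. H3K27ac rose from 39.7% to 80.2% of the sites over the same bins in DMSO, and its retention lay between 66.1% and 72.2%.

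**Figure D3:**
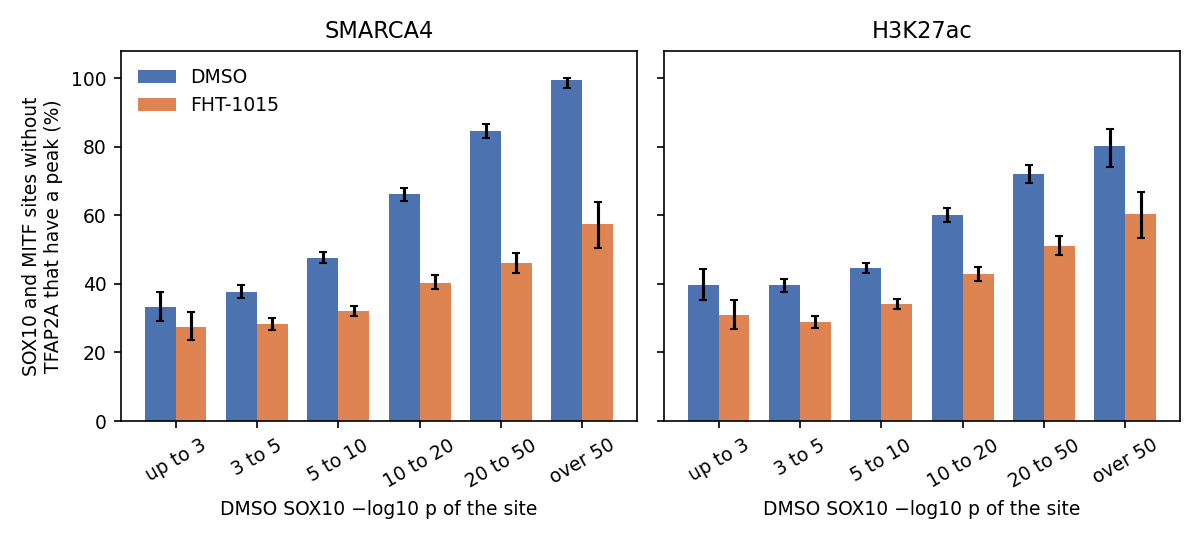
Share (%) of the SOX10 and MITF sites without TFAP2A with a SMARCA4 (left) or H3K27ac (right) peak in DMSO (blue) and FHT-1015 (orange), by bin of the site's DMSO SOX10 −log10 p. Whiskers are 95% Wilson intervals. SMARCA4 goes from 33.3% to 99.5% of sites in DMSO and from 27.5% to 57.4% in FHT-1015.

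The 4 outcomes for SOX10 and MITF went with different fates of the other 2 marks. Of the sites with a DMSO SMARCA4 peak, 90.2% (87.0 to 92.6) kept it where both factors were kept, 81.7% where SOX10 alone was kept, 59.5% where MITF alone was kept and 38.9% (37.2 to 40.6) where both were lost. At triple sites the same order held, with 97.3%, 92.1%, 80.9% and 54.7%. For H3K27ac the shares were 98.0%, 97.2%, 75.7% and 53.5%, against 99.4%, 95.5%, 86.0% and 57.9%. A gene boundary was near 19.2% of the sites that kept both and 4.25% of those that lost both, and DMSO strength differed as above. The part of either in these shares was not tested.

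Sorted instead by their DMSO state, the sites with H3K27ac kept the factors more often. Among the 3847 sites (36.2%) with SMARCA4 and H3K27ac, 13.9% kept SOX10 and 49.3% kept MITF. Among the 1484 with H3K27ac only, 10.0% and 41.7% did. Among the 1847 with SMARCA4 only, 4.28% and 29.4% did, close to the 4.04% and 29.5% of the 3437 sites with neither. The median SOX10 −log10 p was 10.2 with both, 6.65 with H3K27ac only, 7.88 with SMARCA4 only and 5.56 with neither. In DMSO, H3K27ac was on 79.8% of the sites at a gene boundary and on 48.0% of the others, and SMARCA4 on 49.8% and 53.9%. Sites at a boundary kept SOX10 and MITF more often. The part of place, or of SOX10 or MITF strength, in these shares was not tested.

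TFAP2A had an FHT-1015 peak on 792 of the sites, 7.46% (6.98 to 7.98), against 8.08% of all SOX10 peaks without TFAP2A in DMSO and 8.30% of those with neither MITF nor TFAP2A. The share therefore lay near the background. The gained peaks had a median −log10 p of 5.76, against 6.82 over the whole FHT-1015 TFAP2A list, and a maximum of 204, and 17.2% (136) reached 10. Gains were uneven: 38.1% of the sites that kept both SOX10 and MITF had a TFAP2A peak in FHT-1015, and 2.86% of those that lost both. At gene boundaries 30.3% of the sites gained one, elsewhere 5.73%. These splits were not made for the other SOX10 peaks without TFAP2A, so the unevenness is not shown to be particular to these sites. The sites were 185 to 3795 bp long, and length was not matched. Of the gained sites, 15.7% met an FHT-1015 TFAP2A peak that also met a DMSO TFAP2A peak outside the site.

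Counted over all 5 antibodies, 3983 sites (37.5%) had no peak of any of them in FHT-1015, against 12.8% of triple sites. One antibody was left at 25.4%, 2 at 18.3%, 3 at 12.6%, 4 at 4.64% and all 5 at 1.54%, against 22.8% of triple sites with all 5. The triple sites began with a TFAP2A peak that these sites lacked by the rule. In DMSO they also had SMARCA4 on 83.8% against 53.6% and H3K27ac on 75.3% against 50.2%. Their median SOX10 −log10 p was 16.6 against 7.14. The counts were not matched for these differences.

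**Figure D4:**
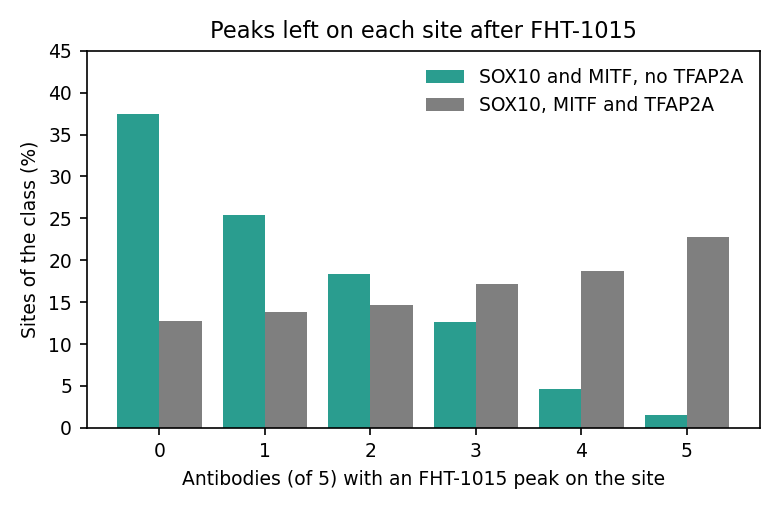
Share of sites (%) by the number of antibodies, of SOX10, MITF, TFAP2A, SMARCA4 and H3K27ac, that had an FHT-1015 peak on the site. Green is the SOX10 and MITF sites without TFAP2A, grey the triple sites. The green bars fall from 37.5% at 0 to 1.54% at 5, and the grey bars rise from 12.8% to 22.8%.

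The 749 sites at a gene boundary behaved unlike the 9866 others, called distal. SOX10 was kept at 21.6% (18.8 to 24.7) of them and at 7.49% (6.99 to 8.03) of the distal ones, a difference of −14.1 points (−17.3 to −11.3). That difference was −7.32 with 50% of the peak covered. It was −29.5 for sites chosen at a −log10 p of at least 10 for SOX10 and for MITF. MITF was kept at 58.6% and 36.9%, a difference of −21.8 points (−25.4 to −18.1). SMARCA4 was on 49.8% of boundary sites in DMSO and on 56.6% in FHT-1015, while it went from 53.9% to 33.1% of distal sites. H3K27ac went from 79.8% to 76.4% at boundaries and from 48.0% to 33.9% elsewhere. The same split was not made for the other SOX10 peaks, so it is not shown to be particular to these sites. Without boundary sites, the difference from triple sites at like strength went from −12.3 to −5.20 points for SOX10. For MITF it went from −9.29 to −2.21. On the 352 sites on a promoter window, MITF was kept at 72.6% (60.4 to 82.1) of the 62 whose promoter held CACGTG, at 58.1% (45.7 to 69.5) of the 62 with CATGTG and at 56.4% (up to 62.6) of the 234 without either E-box. With either E-box it was 64.4% (55.4 to 72.5), and all these intervals overlap. The median DMSO MITF −log10 p was 18.6 with CACGTG, 13.8 with CATGTG and 7.33 without an E-box.

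The strongest sites show both ends of the range. The site of highest SOX10 −log10 p, at chr8:108354923-108356160, 87463 bp from EMC2, went from 168 to 28.9 for SOX10, 126 to 35.9 for MITF and 212 to 196 for H3K27ac. The next, at chr2:83323812-83324341, went from 161 to 11.4 for SOX10 and from 39.4 to 4.00 for SMARCA4, had no H3K27ac peak in either condition and lay 1099186 bp from the nearest protein-coding gene, SUCLG1. Inside SEMA3A, which encodes a secreted guidance cue, the site at chr7:84085084-84085542 went from 147 to 43.5 for SOX10 while MITF went from 11 to 17.7 and H3K27ac from 27.3 to 77.2, and a TFAP2A peak of 10.5 was listed in FHT-1015 only. The other 2 of the 5 strongest that kept SOX10 were in FSBP (119 to 30.2) and 965061 bp from NXPH1 (115 to 13.5), and neither kept MITF.

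Of the 5 strongest sites that lost SOX10, FGFR2 holds one. The site in this fibroblast growth factor receptor gene, at chr10:121501510-121502208, had SOX10 at 128 and MITF at 3.50 in DMSO and neither in FHT-1015, and its SMARCA4 went from 8.62 to 2.44. At chr12:93221737-93222357, 155567 bp from NUDT4, SOX10 at 128, MITF at 8.94, SMARCA4 at 14.5 and H3K27ac at 9.49 all had no FHT-1015 peak. The same held 75856 bp from GLUL, glutamine synthetase, where SOX10 was 123, MITF 52.6, SMARCA4 9.35 and H3K27ac 38.4. At the site 52793 bp from NHLRC3, SOX10 was 110 and MITF 143 in DMSO. In SLC7A2, a cationic amino acid transporter, they were 110 and 133. H3K27ac was listed in both conditions, at 72.4 and 6.21 for the first site and at 187 and 23.3 in SLC7A2.

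The 5 strongest sites with a TFAP2A peak in FHT-1015 were that in SEMA3A, a site in ZNF519 and 3 outside genes. These lay 79037 bp from TRIM2, 64062 bp from SPAG16 and 256730 bp from ZNF385D, the nearest genes. At ZNF519 SOX10 went from 79.6 to 53.3, TFAP2A was 8.27 in FHT-1015 and SMARCA4 went from 14.2 to 38.2. Near TRIM2 SOX10 went from 80.7 to 52.2 and TFAP2A was 7.60. Near SPAG16 they were 78.3 to 28.6 and 5.22. Near ZNF385D the SOX10 peak of 81.2 was lost, with those of MITF, SMARCA4 and H3K27ac, and a TFAP2A peak of 3.74 was listed. The first 4 of these kept SOX10 and MITF.

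By gene, 3441 of 20056 protein-coding genes (17.2%) held at least 1 site, and 4815 (24%) had one inside or within 10 kb. Of the first, 2275 had a single site and 140 had 5 or more. The 10 genes with the most sites, led by PDE4D with 14 and INPP4B with 13, are long, from 367 to 1743 kb. PDE4D, a cyclic AMP phosphodiesterase, kept SOX10 at none of its 14 sites and MITF at 6. TENM3, a teneurin adhesion molecule, kept SOX10 at none of 11 and MITF at 2, and its 5 H3K27ac sites all lost the mark. INPP4B, a phosphoinositide phosphatase, kept SOX10 at 5 of 13 and MITF at 7, with SMARCA4 on 9 sites in DMSO and 10 in FHT-1015 and H3K27ac on 12 and 13. ARID1B, itself a subunit of the BAF complexes, kept SOX10 at 5 of 11 and MITF at 6, with SMARCA4 on 8 sites and H3K27ac on 10 in both conditions. The other 6 were LINGO2, ROBO2 and PRKG1 with 12 sites each, MAML2 with 11, and HDAC9 and PCDH7 with 10, where SOX10 was kept at 1 to 4 sites.

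Of 20 pigment and melanosome genes, 14 had a site inside or within 10 kb, 33 sites in all, of which 4 kept SOX10 and 10 kept MITF. RAB38, a small GTPase that sends enzymes to melanosomes, had 9 of its 54 SOX10 peaks in this class. At its strongest, chr11:88103230-88104132, SOX10 went from 30.6 to 6.70, MITF from 106 to 77.2, SMARCA4 from 11.5 to 15.6 and H3K27ac from 44.6 to 80.8, and TFAP2A was listed at 9.25 in FHT-1015. The neighbouring sites at 88105465 and 88106057 on chromosome 11 lost SOX10 (6.07 and 11.2), and the MITF peak that they share went from 67.0 to 46.6. In SLC45A2, a melanosomal transporter, the site at chr5:33981830-33982347 lost SOX10 (29.0), MITF went from 103 to 13.8, SMARCA4 from 12.8 to 13.6 and H3K27ac from 30.6 to 16.2.

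In TYR, which encodes tyrosinase, the rate-limiting enzyme of melanin synthesis, the site at chr11:89183403-89183623 had SOX10 at 4.56 and MITF at 152 in DMSO. Neither was listed in FHT-1015, and H3K27ac went from 145 to 25.7 while a SMARCA4 peak of 5.63 appeared. TYRP1, a related melanosomal enzyme, went the other way for SOX10: 10.0 in DMSO and 30.7 in FHT-1015, with MITF at 3.31 and then not listed. Both sites in MLPH, the adaptor of melanosome transport, lost SOX10 (5.01 and 26.2) and the MITF peak of 34.9 that they share. MYO5A, the motor of the same transport, lost both factors at its 3 sites. The site in RAB27A, the GTPase that recruits MLPH, lay on a promoter window with none of the motifs searched, lost SOX10 (8.12) and kept MITF, at 48.7 and 7.48. In PMEL, the gene of the melanosome fibril, the 1 site inside the gene had SOX10 at 4.87 and 5.31 and lost a MITF peak of 3.87. None of the 4 sites in or near PMEL kept MITF, and 3 of them also count for the neighbouring gene CDK2.

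Of 20 genes of lineage transcription factors, 15 had a site, 36 sites in all, of which 5 kept SOX10 and 19 kept MITF. SOX10 itself had 1, at chr22:37982329-37982649, weak for SOX10 (3.94, then lost) and MITF (2.66 and 4.93), with SMARCA4 at 21.2 and 43.0. MITF had 5 sites, of which 1 kept both factors, with SOX10 at 7.01 and 4.53 and MITF at 10.0 and 11.2. Near TFAP2A, at chr6:10429618-10430598, all 5 antibodies had a peak in FHT-1015, with SOX10 at 7.42 and 5.81 and TFAP2A at 5.16. PAX3, a neural crest factor upstream of MITF, had 4 sites. One kept SOX10, at 3.99 and 6.41, and at the one of strongest MITF that factor went from 89.0 to 15.6.

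ZEB2, a factor of neural crest and melanocytes, had 2 adjacent sites. The first, at chr2:144426087-144426675, lost SOX10 (27), with MITF going from 112 to 29.5 and SMARCA4 from 19.1 to 5.49, and the second lost SOX10 (19.7), MITF (5.13) and SMARCA4 (6.05). SOX5 and SOX6 encode SoxD factors that can modulate SOX10. SOX5 had 8 sites, kept SOX10 at none and MITF at 4. SOX6 kept MITF at all 5 of its sites, and at chr11:16375602-16376081 MITF went from 3.24 to 212, SOX10 from 8.07 to 10.5 and H3K27ac from 118 to 250. In LEF1, an effector of Wnt signalling, the site of SOX10 21.8 lost SOX10, MITF and SMARCA4, and the other lost SOX10 (6.51) and kept MITF, at 67.7 and 12.0.

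**Figure D5:**
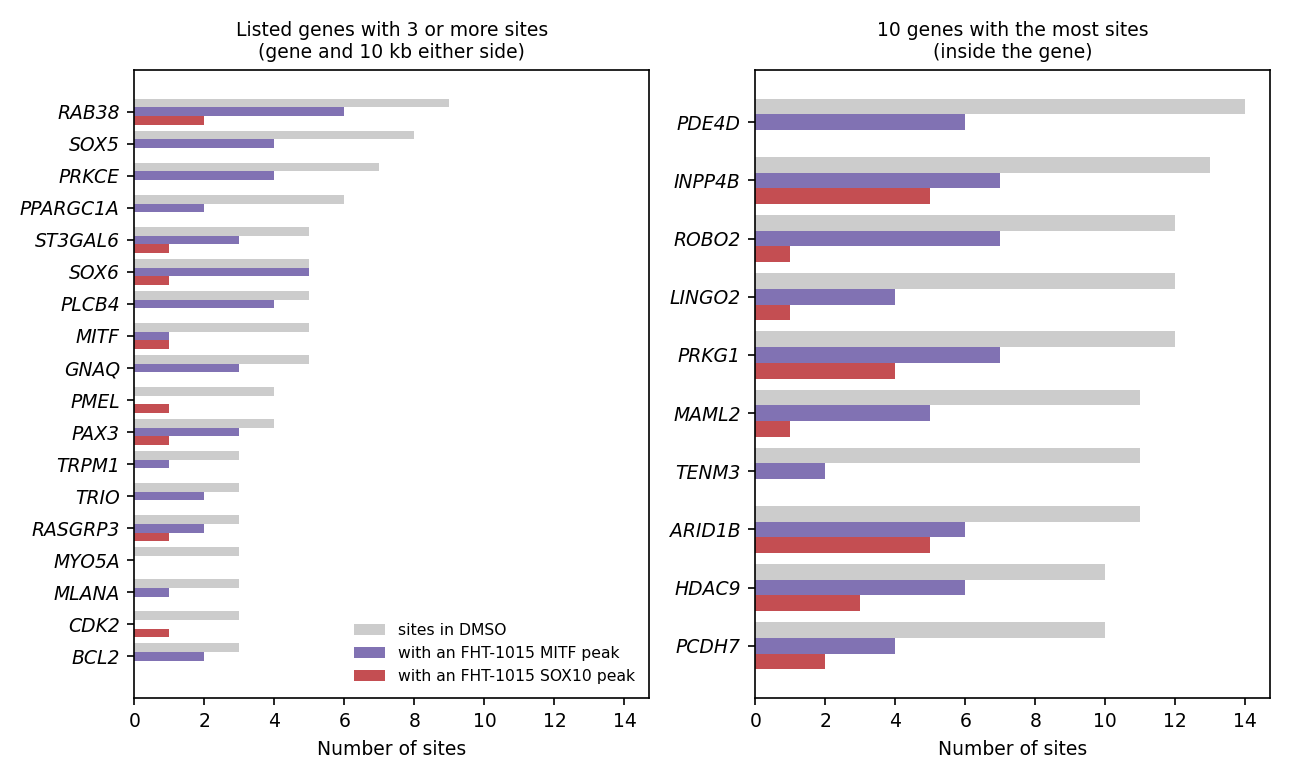
Number of SOX10 and MITF sites without TFAP2A in DMSO (grey), and how many of them met a MITF (purple) or SOX10 (red) peak in FHT-1015. Left, listed genes with 3 or more sites inside or within 10 kb. Right, the 10 protein-coding genes with the most sites inside, with no correction for gene length. PMEL and CDK2 share 3 sites, and SOX10 bars are absent for PDE4D, TENM3, SOX5, PRKCE, PPARGC1A, GNAQ and others, where no site kept SOX10.

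Of 14 SOX10 and neural crest targets, 7 had a site, 12 sites in all, of which 1 kept SOX10 and 4 kept MITF. ST3GAL6, a sialyltransferase, had 5 of them. Its site at chr3:98733837-98734312 kept both factors, with SOX10 at 3.85 and 3.76, MITF at 31.2 and 39.6 and TFAP2A at 14.5 in FHT-1015. In SEMA3C, a semaphorin, SOX10 of 31.5 and MITF of 4.70 were lost while H3K27ac went from 75.2 to 195. The site at a boundary of KIT, the stem cell factor receptor, lost SOX10 (28.9) and MITF (4.03) and kept SMARCA4, at 6.18 and 7.17. In RXRG, a retinoid receptor, SOX10 of 28.5, MITF of 7.34 and SMARCA4 of 7.52 were all lost.

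Of 12 MITF targets in survival and growth, 7 had a site, 18 sites in all, of which 2 kept SOX10 and 6 kept MITF. PPARGC1A, a coactivator of mitochondrial genes, had 6, and none kept SOX10. The strongest 2 were at chr4:23970381-23971073, with SOX10 at 77.2 and MITF going from 42.1 to 2.51, and at chr4:24405865-24406356, with SOX10 at 45.5 and MITF at 42.1, both lost along with SMARCA4 (9.47) and H3K27ac (27.7). In BCL2, an inhibitor of apoptosis, all 3 sites lost SOX10 and H3K27ac and 2 kept MITF. In MET, the hepatocyte growth factor receptor, both sites lost both factors, the stronger from SOX10 18.1 and MITF 43.0. HIF1A, the oxygen-regulated factor, had a site outside the gene, at chr14:61755208-61755671 and nearer to SNAPC1, where SOX10 of 30.2 was lost and MITF went from 45 to 14.7.

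Of 13 lysosomal genes, 4 had a site, 7 sites in all, of which 2 kept SOX10 and 5 kept MITF. Near ATP6V1A, a proton pump subunit, and inside the neighbouring gene NAA50, SOX10 had 6.16 and 7.09 and MITF 102 and 89.3, and the site inside ATP6V1A lost SOX10 (15.4) with MITF going from 121 to 26.1.

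Uveal melanomas typically carry activating changes in the G alpha q pathway. Of 9 of its genes, 5 had a site, 23 sites in all, of which 1 kept SOX10 and 15 kept MITF. GNAQ, the G alpha q subunit, had 5 sites and kept SOX10 at none. At its strongest, chr9:77725013-77725580, SOX10 of 73.1, MITF of 3.42 and SMARCA4 of 8.80 were lost. TRIO, a guanine nucleotide exchange factor downstream of G alpha q, lost a SOX10 peak of 12.2-fold enrichment at chr5:14313996-14314819, with MITF −log10 p going from 134 to 20.0, SMARCA4 from 19.2 to 9.47 and H3K27ac from 94.7 to 7.58. PRKCE, a protein kinase C, had 7 sites with SMARCA4 on all 7 in DMSO and 4 in FHT-1015. At its site of strongest MITF, SOX10 of 10.2 was lost and MITF went from 164 to 27. RASGRP3, an activator of RAS downstream of this pathway, held the 1 site that kept SOX10, at 6.59 and 5.37, with H3K27ac at 118 and 346. MITF was thus kept at 65.2% (44.9 to 81.2) of the sites of this list, against 38.4% of all the sites, and SOX10 at 4.35% (0.772 to 21), against 8.49%. In the other 5 lists the intervals held 38.4% for MITF and 8.49% for SOX10. The intervals count every site on its own, although the GNAQ sites at 77826493 and 77827369 had the same MITF values, 13.9 and 6.68. They therefore do not set this list apart from the others. The lists were chosen with results of these data known, several sites share a gene, and MITF strength was not matched, so these shares are a description.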

How the data were processed

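Peak lists of 10 ChIP-seq libraries of 92-1 cells were used, 10 narrow lists and 4 broad ones, in hg38 coordinates. BWA, SAMtools, Picard and MACS2 are named in the submitters' processing notes. Their versions, settings and control are not given in the sources used here. Per the values of the deposited lists, the authors called peaks in each library on its own. For each peak the deposited values were the fold enrichment (a ratio), −log10 p, −log10 q and a score that in narrow lists equals 10 times the −log10 p, truncated. Every −log10 p was above 2.00, so weak peaks were included. Peaks with equal coordinates were counted once, and peaks sharing at least 1 bp were said to meet. Where several peaks met a site, the strongest gave its value. Coordinates are counted from 1.

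Sites were the rows of the SOX10 DMSO list chosen by the rule at the start of the report. The sites, gene lists and comparisons were chosen with earlier results of these data known. Named genes are those of the 6 lists with a site inside or within 10 kb, the 10 genes with the most sites, and the 5 strongest sites that lost SOX10, kept it or gained TFAP2A. Groups were taken from the sample titles. Shares have 95% Wilson intervals and plain differences Newcombe intervals. An interval given for a difference at like strength has the Newcombe width of the plain difference. Differences at like strength are means over 10 deciles of the DMSO −log10 p with weights n × m/(n + m), for deciles with at least 20 sites of both classes, and were tested on simulated data. Genes and promoters came from RefSeq on GRCh38.p14, whose promoter table holds 15843 of the 20056 protein-coding genes. Reads at summits were solved from fold and p as a Poisson tail, a form assumed from MACS2, and came out whole, within 0.002, for at least 99.98% of peaks. In the SOX10 FHT-1015 list they came out whole, within 0.003, after division by 0.890, taken as a scaling to the depth of the input. Python 3.11.15 with pandas 2.3.3, numpy 2.4.6 and scipy 1.17.1 was used. Alternatives are under the processing heading of the closing section. Motifs at summits were not analysed here. Some items of the lists are not reported here.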

Additional observations from a re-analysis of the deposited data

How the results depend on the processing

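No paired analysis was possible because each antibody had 1 library per condition. For the same reason no fit without a library was made. No result changed direction under the alternatives run, apart from H3K27ac with summits compared, where DMSO and FHT-1015 had the same share. The cause of each shift was not tested. Shares are of sites, and differences are in percentage points.

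With q under 0.05 in every list, SOX10 was kept at 6.47% and MITF at 36.8%, SMARCA4 was on 51.1% and 32.2% in DMSO and FHT-1015 and H3K27ac on 51.6% in DMSO, and SOX10 retention differed from triple sites by −9.79 and between distal and boundary sites by −10.3. With sites chosen at a −log10 p of at least 10 for SOX10 and for MITF, the values were 13.2%, 53.2%, 78.7%, 46.3% and 72.8%. H3K27ac was then on 49.8% in FHT-1015, TFAP2A was gained at 6.60%, and SOX10 was lost with MITF kept at 41.1%. The differences from triple sites were then −20.8 for SOX10, −13.8 for MITF and −19.6 for SMARCA4, and those between distal and boundary sites −29.5 for SOX10 and −29.9 for MITF.

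With 50% of the SOX10 peak covered, SOX10 was kept at 5.39%, MITF at 34.9%, SOX10 was lost and MITF kept at 31.2%, TFAP2A was gained at 4.96%, SMARCA4 was on 46.5% and 27.5% and H3K27ac on 39.6% and 30.8%. The differences from triple sites were −4.60 for SOX10, −0.506 for MITF, −9.20 for SMARCA4 and −2.81 for H3K27ac, and that of distal from boundary sites −7.32 for SOX10. With summits within 200 bp, SOX10 was kept at 6.96%, MITF at 36.3%, TFAP2A was gained at 5.44%, SMARCA4 was on 47.2% and 25.8% and H3K27ac on 18.5% in both conditions. The differences were −9.33, −4.71, −7.02 and −6.75 from triple sites in the same order, and −11.3 for SOX10 between distal and boundary sites. Under both settings the MITF peak that chose the sites was matched in that way, and the absence of TFAP2A was judged at 1 bp. For the MITF, SMARCA4 and H3K27ac differences, the DMSO peak and its decile were also taken at 1 bp. Only their FHT-1015 peak was sought by coverage or by summits. With no TFAP2A peak within 500 bp, SOX10 was kept at 7.30%, MITF at 37.3%, TFAP2A was gained at 5.60%, SMARCA4 was on 51.5% and 30.4% and H3K27ac on 45% and 31.4%, and the differences from triple sites were −13.6 for SOX10 and −19.1 for SMARCA4.

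Broad lists put SMARCA4 on 62.4% and 42.3% of sites and H3K27ac on 54.0% and 39.8%. MITF was kept at 40.9% when FHT-1015 peaks were sought on the DMSO MITF peak. Without strata, the differences from triple sites were −23.3 for SOX10, −14.7 for MITF, −24.3 for SMARCA4 and −14.3 for H3K27ac, and over distal sites only −5.20, −2.21, −8.26 and −2.59. Boundaries of 2.5 kb gave −10.8 between distal and boundary sites for SOX10. Either E-box was in 12.4% of the central 100 bases of promoters on a site.

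Some alternatives were chosen after seeing the data: those of the MITF, SMARCA4 and H3K27ac differences from triple sites, windows of 300 bp around the SOX10 summit and the starts in the promoter table. The windows gave −10.9 for SOX10, −6.85 for MITF and −12.2 for SMARCA4 against triple sites, and SMARCA4 on 33.8% in FHT-1015. The starts gave −18.2 for SOX10 between distal and boundary sites. The other 31 alternative values moved by less than their interval. The summit depth of 16 to 20 reads at the median factor peak on the sites limits the weak peaks. The lower depth of MITF in FHT-1015, 0.854 of DMSO, limits the −log10 p that a MITF peak could reach there. For SOX10 in FHT-1015, the inferred scaling by 0.890 lowers the −log10 p that a given number of reads could reach.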
